A study of Mus musculus with 60 samples.

Results

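Succinylacetone (SA) was examined in differentiated primary brown adipocytes that were supplied with heme in all libraries compared. HASA libraries, from cells given heme-arginate (HA) at 10 µM together with SA at 1 mM, were set against HA libraries, from cells given heme-arginate at 10 µM alone, with 4 libraries in each group. The table of this experiment held 19569 genes, and the 12778 whose group mean reached 4 on the deposited log2 scale in HA or in HASA were compared. Just inside this limit lay Susd1 (4.00 in HA and 3.93 in HASA) and Bend4 (3.96 and 4.00), and just outside it lay Tekt2 (4.00 and 3.97, before rounding just below 4) and Cyp2c23 (4.00 and 3.87). The 8 libraries belong to a series of 60. All came from wild-type primary brown preadipocytes (pBAT) isolated from pups on the day of birth or the day after, and were grown and differentiated in culture. The other 2 groups of the same experiment, Vehicle (neither compound) and SA at 1 mM alone, also had 4 libraries each and served to show the change with SA when no heme-arginate was given. Here the word change means a difference of group means on the log2 scale, a value is the deposited log2 value, and a gene was called when its adjusted p was under 0.05 (limma, Benjamini-Hochberg over the 12778 genes). The labels do not say whether the libraries of a group came from separate cultures, so the p-values measure only the spread between these libraries.

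Heme is made in a chain of enzymes that begins in the mitochondrion with ALAS1, passes through the cytosol and ends in the mitochondrion with ferrochelatase, which puts iron into the porphyrin ring. SA blocks ALAD, the enzyme after ALAS1, and heme-arginate is a soluble form of heme that cells can take up. Heme represses Alas1 and is the cofactor of cytochromes, catalase and globins, and brown adipocytes, which burn fuel to make heat through the uncoupling protein UCP1, are rich in such proteins.

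The cultures had the markers of fat cells. The 23 general adipocyte markers summed to between 20060 and 20920 CPM (2 raised to the value, scaled to the same total in each library) in HA and to between 24440 and 25460 CPM in HASA. The brown fat markers Ucp1 (mean 5.99 CPM over both groups, a low level) and Cidea (74.7 CPM) were measured. None of the 6 lymphocyte markers in the table and only 2 of 6 endothelial markers reached the limit. Macrophage markers summed to between 489 and 558 CPM in HA and between 504 and 621 CPM in HASA. Preadipocyte and fibroblast markers were lower in HASA, at 479 to 488 CPM against 563 to 592 CPM. Genes encoded in the mitochondrion took 6.17 to 7.28% of the total in HA and 6.46 to 7.19% in HASA. The first principal component of the 16 libraries held 53.2% of the variance. In bulk RNA, fewer cells of a type and less RNA per cell cannot be told apart.

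With heme supplied, SA was followed by a change in 5472 of the 12778 genes, which is 42.8%. Of these, 2611 (20.4%) were higher and 2861 (22.4%) were lower in HASA than in HA. Most changes were small: the median size among called genes was 0.23 on the log2 scale, and 30 genes were at least 2-fold higher and 53 at least 2-fold lower. For 2343 genes (18.3%) all HASA libraries lay above all HA libraries, and for 2643 (20.7%) all lay below. The 12 largest rises and falls taken by the naming rule had to be such genes, so their lack of overlap follows from the choice. In the same fit, SA against Vehicle called 5290 genes (41.4%) and heme-arginate alone against Vehicle called 8.98% of genes, 4.89% higher and 4.09% lower.

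The genes that moved far with SA moved in the same direction with and without heme-arginate. All 83 genes with at least a 2-fold change between HASA and HA were also called in the same direction between SA and Vehicle, 2 contrasts that share no library, and 34 of the 83 had a called interaction. Of all genes called, 3434 were called in both contrasts in the same direction, 62.8% of those called with heme-arginate and 64.9% of those called without. Across the 12778 genes the changes correlated with a Pearson r of 0.80 and a Spearman rho of 0.71. This is a description across genes that share a normalization and are not independent replicates. The difference between the changes was tested as an interaction (HASA minus HA, minus SA minus Vehicle), and 981 genes (7.68%) were called. Of the 5472 genes, 702 had an interaction: 322 changed further with heme-arginate in the same direction, 137 changed less, and 243 had changes of opposite sign. The 702 had to be called with heme-arginate, which favours larger changes there, so 322 against 137 does not compare the 2 settings. Of the 243, 68 were called in both contrasts. For the rest the change without heme-arginate was not called, so its sign is not established. There were 1027 genes called higher and 943 called lower with heme-arginate that were not called without it, which alone does not show a difference.

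**Figure D1:**
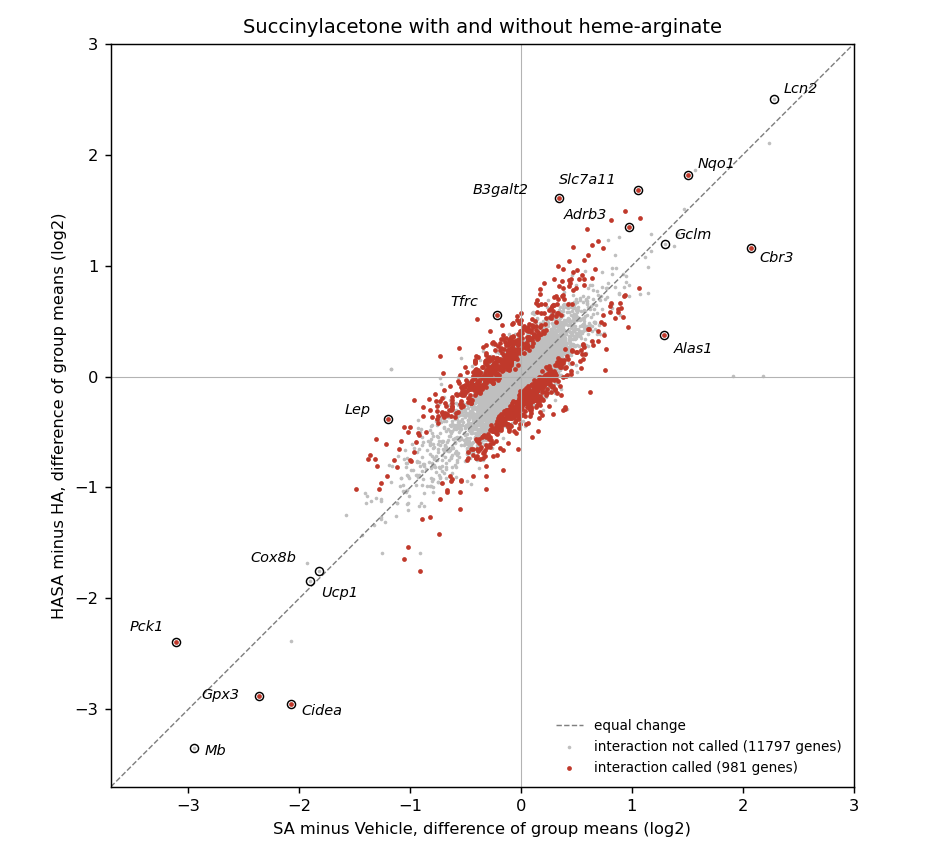
Each point is 1 of the 12778 genes, with its change between SA and Vehicle on the horizontal axis and its change between HASA and HA on the vertical axis, both as differences of log2 means. Red points are the 981 genes with a called interaction, the dashed line marks equal changes, and Ucp1, Cox8b and Lcn2 lie near that line while Alas1, Cbr3 and B3galt2 lie far from it.

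Alas1, the first and rate-limiting enzyme of heme synthesis, had values of 12.19, 12.09, 11.997 and 12.10 in the HA libraries and 12.58, 12.41, 12.45 and 12.46 in the HASA libraries. Every HASA library lay above every HA library. The change was 0.38 (SE 0.0469, limma adjusted p = 4.18e-06), or 1.30-fold. Without heme-arginate, SA moved Alas1 from 12.42 ± 0.0597 to 13.72 ± 0.0691 (mean ± SD, n = 4), a change of 1.29, so the change was smaller by 0.91 with heme-arginate, with an interaction of -0.91 (SE 0.0663, limma adjusted p = 1.16e-06). The mean in HASA, 12.47 ± 0.0703, differed from Vehicle by 0.05 (SE 0.0469, limma adjusted p = 0.41).

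Of the 8 heme synthesis genes measured above the limit, 2 rose and 2 fell, with a median change of 0.04 against 0.0038 over all genes, of which 20.4% rose and 22.4% fell. Alad, the enzyme that SA inhibits, had values of 9.63, 9.63, 9.65 and 9.63 in HA and 9.34, 9.40, 9.37 and 9.39 in HASA, with no overlap between the groups. It fell by 0.26 on the log2 scale (SE 0.0383, limma adjusted p = 2.94e-05). Urod, uroporphyrinogen decarboxylase, changed by -0.18 (SE 0.0511, limma adjusted p = 0.0087), and Uros, the synthase before it, by 0.20 (SE 0.0603, limma adjusted p = 0.0123). Cpox (0.05), Ppox (-0.12, limma adjusted p = 0.0539) and Fech (0.03) did not pass the test. Alas2, the erythroid form of the first enzyme, did not reach the limit.

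Genes of heme breakdown and transport were divided, with 9 of 19 higher, 3 lower and a median change of -0.05. Over all genes 20.4% were higher and 22.4% lower. Hmox1, the inducible heme oxygenase, had values of 15.66, 15.86, 16.01 and 15.83 in HA and 16.17, 16.13, 16.31 and 16.31 in HASA. All HASA libraries were above all HA libraries, by 0.39 (SE 0.0783, limma adjusted p = 0.000611). Heme-arginate alone had already raised it from 13.65 ± 0.167 to 15.84 ± 0.141, a change of 2.19. Hmox2, the constitutive oxygenase, fell by 0.33, and Bach1, the heme-binding repressor of Hmox1, rose by 0.37. These 3 genes were picked after their values were seen. Blvrb, which reduces biliverdin, rose by 0.66 with heme-arginate and by 0.89 without it (interaction -0.23, SE 0.0442, limma adjusted p = 0.00418). Pgrmc1, a heme-binding membrane protein, rose by 0.65 and 0.65, and Slc48a1, a heme transporter of lysosomes, rose by 0.40 and 0.39. Hpx, the heme scavenger hemopexin, rose by 0.39 and 0.24.

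Iron genes showed 6 rises and 6 falls among 18, with a median change of -0.01, where 20.4% of all genes rose and 22.4% fell. Tfrc, the transferrin receptor for iron uptake, had values of 9.73, 9.67, 9.70 and 9.57 in HA and 10.14, 10.04, 10.36 and 10.34 in HASA. The groups did not overlap, and Tfrc rose by 0.55 (SE 0.106, limma adjusted p = 0.000395). Without heme-arginate its change was -0.22 (limma adjusted p = 0.11), and the interaction was 0.77 (SE 0.15, limma adjusted p = 0.00418). The level in HA was 1.13 below Vehicle, and HASA stood between the 2 groups. Steap4, a metalloreductase, rose by 0.96 with heme-arginate and 0.50 without it. Slc11a2, the divalent metal transporter, fell by 1.15 and 1.03, and Steap3, the endosomal ferrireductase, fell by 0.55 and 0.56. Ftl1, the ferritin light chain, rose by 0.49 and 0.72. Near-identical ferritin light chain copies exist in the mouse genome, so its value is uncertain.

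**Figure D2:**
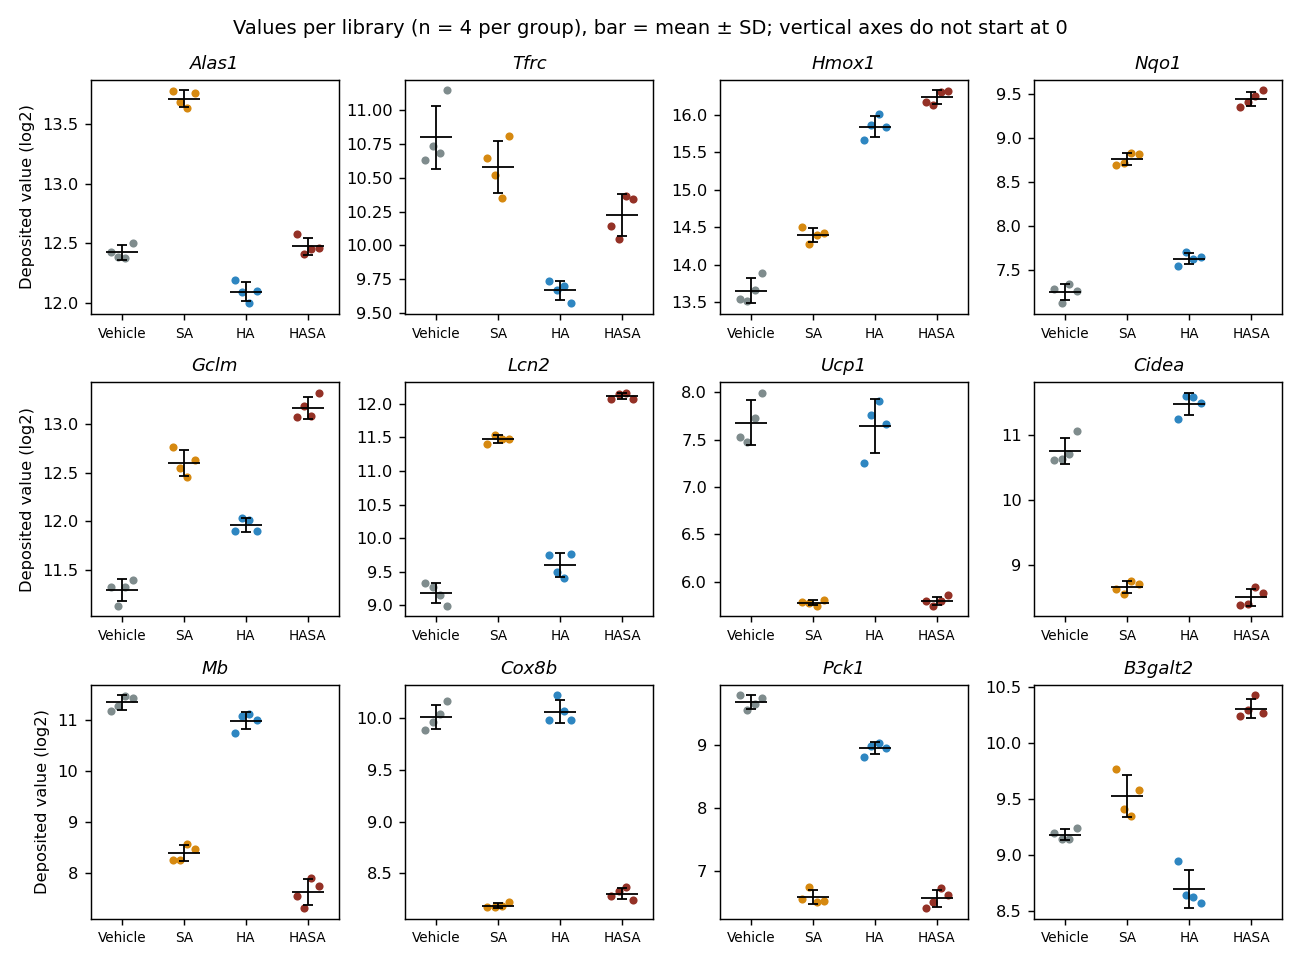
Deposited log2 values of 12 genes in each of the 16 libraries, 4 in each of Vehicle, SA, HA and HASA, with the mean and SD of each group as bars. Axes do not start at 0. Nqo1, Gclm and Lcn2 are high in SA and higher in HASA, Ucp1, Cidea, Mb, Cox8b and Pck1 are low in SA and in HASA, and Alas1 in HASA (mean 12.47) lies close to Vehicle (12.42).

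Heme proteins moved both ways, with 9 of 25 higher and 10 lower, where 20.4% of all genes were higher and 22.4% lower. Mb, myoglobin, an oxygen-binding heme protein of muscle that brown fat also makes, had the largest fall among the genes named here. Its values were 10.75, 11.08, 11.11 and 11.003 in HA and 7.56, 7.32, 7.92 and 7.75 in HASA. The highest HASA library was more than 2 log2 units below the lowest HA library. The change was -3.35 (SE 0.113, limma adjusted p = 4.86e-13), or 10.2-fold lower, against -2.95 without heme-arginate, and the interaction of -0.40 did not pass (limma adjusted p = 0.137). Cat, catalase, rose by 0.74 with heme-arginate and by 0.93 without it, with an interaction of -0.19 (SE 0.0424, limma adjusted p = 0.00887). Cyb5a, cytochrome b5, rose by 0.51 and 0.48.

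Most of the thermogenic and brown adipocyte list fell: 14 of 21 genes were lower and 3 higher, with a median change of -0.34, against 22.4% of all genes lower. Ucp1 had values of 7.25, 7.76, 7.91 and 7.66 in HA and 5.80, 5.75, 5.80 and 5.86 in HASA. No HASA library came near the HA range, and the change was -1.84 (SE 0.114, limma adjusted p = 6.46e-10), or 3.59-fold lower. Without heme-arginate it was -1.90, and the difference between the changes was 0.06 with a 95% interval from -0.28 to 0.39 (limma adjusted p = 0.877). The SD of Ucp1 in HASA, 0.0454, was far below that in HA, 0.282. The deposited scale compresses low values, so its fold is a low estimate.

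Cidea, a lipid droplet protein that marks brown fat, had values of 11.23, 11.59, 11.58 and 11.48 in HA and 8.40, 8.41, 8.66 and 8.58 in HASA. The groups lay far apart, with a change of -2.96 (SE 0.094, limma adjusted p = 2.42e-13), or 7.77-fold lower. The fall exceeded that without heme-arginate, -2.08, with an interaction of -0.88 (SE 0.133, limma adjusted p = 0.000706). Heme-arginate alone had raised Cidea by 0.72 over Vehicle, and HASA and SA had nearly the same level, 8.51 ± 0.129 and 8.67 ± 0.088. Cox8b, a cytochrome oxidase subunit typical of brown fat and muscle, fell by 1.76 with heme-arginate and by 1.82 without it. Cpt1b, which brings fatty acids into mitochondria, fell by 1.26 (limma adjusted p = 7.97e-11). Adrb3, the beta-3 adrenergic receptor through which noradrenaline acts on fat cells, went the other way. Its values were 11.69, 11.65, 11.72 and 11.61 in HA and 12.87, 13.04, 13.15 and 13.02 in HASA, without overlap, and it rose by 1.35 (SE 0.0544, limma adjusted p = 3.89e-12), against 0.98 without heme-arginate.

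Nuclear genes of the respiratory chain were lower as a body. Of 36 complex I subunits, which take electrons from NADH, 34 fell and none rose, with a median change of -0.40. Over all genes 22.4% fell and 20.4% rose. Without heme-arginate there were 26 falls and a median of -0.25, where 21.4% of all genes were lower and 20% higher. For 33 of the 36 the change with SA was further from 0 when heme-arginate was present, a count not made over all genes. For 12 the interaction was called, each time lower, and the median interaction was -0.17 against -0.0042 over all genes. Of all genes 3.79% had a lower and 3.89% a higher interaction. Ndufb10 had values of 12.36, 12.45, 12.39 and 12.48 in HA and 11.80, 11.82, 11.74 and 11.78 in HASA. All HASA libraries were below all HA libraries. It fell by 0.63 with heme-arginate and by 0.31 without it (interaction -0.33, SE 0.0561, limma adjusted p = 0.00192), and Ndufs7 fell by 0.49 and 0.24 (interaction -0.25, SE 0.0425, limma adjusted p = 0.0017).

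In complexes III and IV, which carry heme groups, 25 of 27 genes fell and 1 rose, against 22.4% and 20.4% of all genes. The median was -0.33 with heme-arginate and -0.14 without it. Of the 27 interactions, 11 were called, all lower, where 3.79% of all genes had a lower and 3.89% a higher interaction. Cox5a fell by 0.65 and 0.43, Cox5b by 0.41 and 0.14, and Cyc1, the heme-bearing cytochrome c1, by 0.50 and 0.34. The interactions of Cox5a (-0.22) and Cox5b (-0.27) were called. The 13 genes encoded in the mitochondrion did not follow: 1 rose (mt-Nd5, 0.34), 1 fell (mt-Nd3, -0.43) and 11 did not pass. Their median was -0.09 with heme-arginate and 0.20 without it.

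The TCA cycle list had 14 of 17 genes lower and none higher, with a median of -0.25. Over all genes 22.4% were lower and 20.4% higher. Suclg1, a succinyl-CoA ligase subunit, fell by 0.53 (limma adjusted p = 6.46e-10), and Sdhb, the iron-sulfur subunit of complex II, by 0.47. For both the fall was larger than without heme-arginate, with interactions of -0.19 and -0.22. Idh3a, a subunit of isocitrate dehydrogenase, fell by 0.38. Of 19 fatty acid oxidation genes, 16 fell and 1 rose, with a median of -0.38. Hadhb, the thiolase subunit of the trifunctional protein, fell by 0.98, and Slc25a20, the carnitine carrier, by 0.99. The gene that rose was Acsl1, which activates long-chain fatty acids, by 0.88 (SE 0.0517, limma adjusted p = 3.19e-10) against 0.30 without heme-arginate.

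Catabolism of branched-chain amino acids (BCAA), fuels that brown fat takes up, leaned the same way but less evenly. Of 32 genes, 15 fell, 7 rose and 10 did not pass, where 22.4% of all genes fell and 20.4% rose. The median was -0.13 with heme-arginate and -0.04 without it. The interaction was called for 2 of the 32, against 7.68% of all genes. Dbt and Bckdhb, subunits of the branched-chain ketoacid dehydrogenase, fell by 0.55 and 0.54, and without heme-arginate by 0.39 and 0.36. Bckdk, the kinase that switches this enzyme off, fell by 0.42 and 0.44. Pcca, a subunit of propionyl-CoA carboxylase, fell by 0.48 and 0.59.

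**Figure D3:**
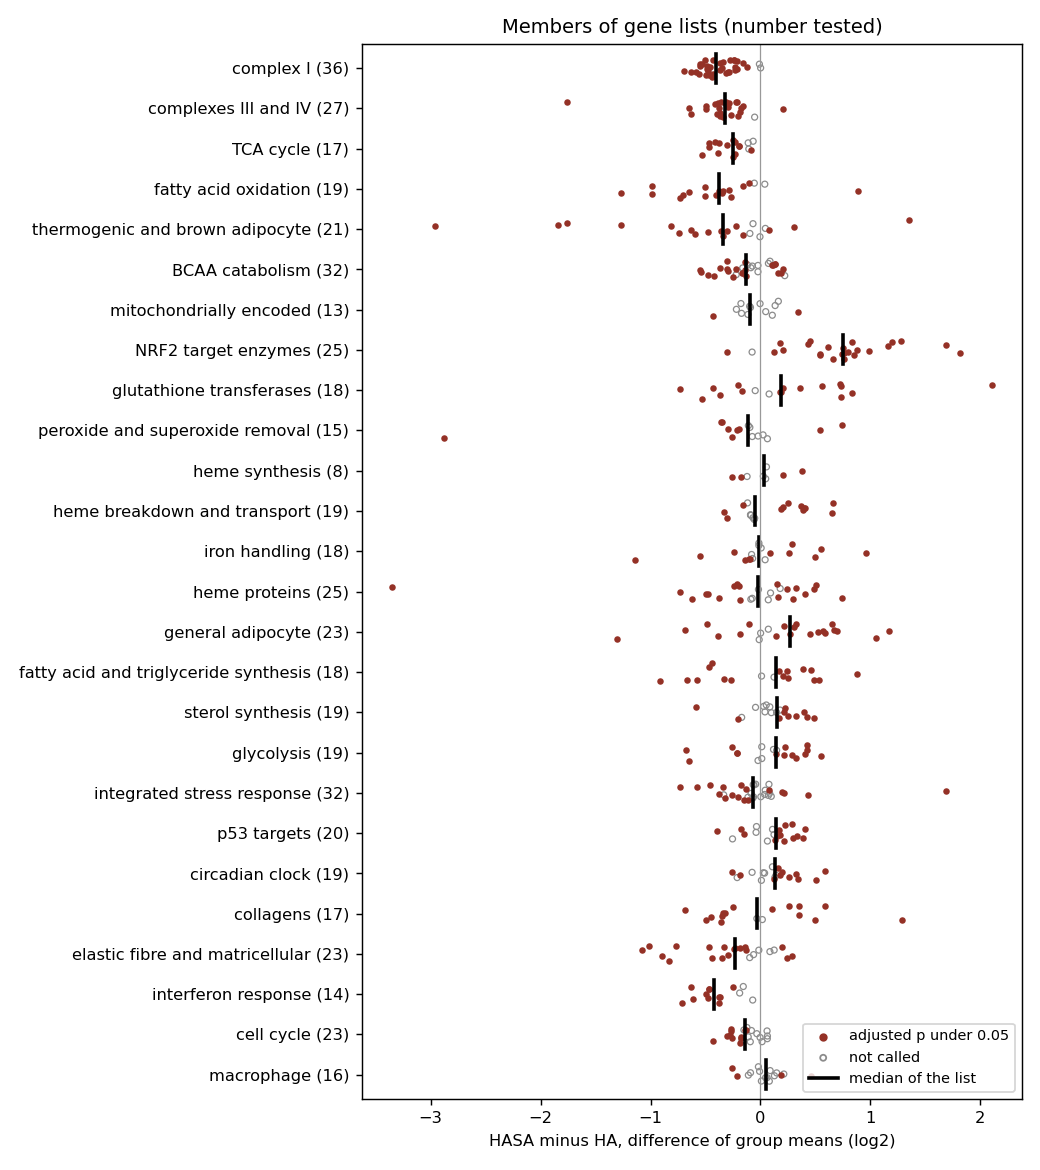
Change between HASA and HA (difference of log2 means) of each tested member of 26 gene lists, with the number tested in brackets. Filled points passed the test, open points did not, and black bars are medians; complex I, complexes III and IV and the TCA cycle lie left of 0 and NRF2 targets right of it.

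Enzymes under the control of NRF2, the transcription factor of the response to oxidants and electrophiles, rose as a group. Of 25 genes, 23 rose and 1 fell, with a median of 0.75, against 20.4% of all genes higher. Without heme-arginate the median was 0.89, with 23 rises. Nqo1, which reduces quinones, had values of 7.55, 7.70, 7.63 and 7.65 in HA and 9.35, 9.41, 9.48 and 9.54 in HASA. The HASA libraries lay well above, by 1.81 (SE 0.057, limma adjusted p = 2.42e-13), or 3.52-fold, and without heme-arginate the change was 1.51. Gclm, the modifier subunit of the enzyme that starts glutathione synthesis, had values of 11.90, 12.04, 12.01 and 11.90 in HA and 13.07, 13.18, 13.07 and 13.31 in HASA. Gclm did not overlap between the groups, rose by 1.20 (SE 0.0681, limma adjusted p = 2.26e-10), and had risen by 1.30 without heme-arginate. Its catalytic partner Gclc rose less with heme-arginate (0.80) than without it (1.07, interaction -0.27, SE 0.049, limma adjusted p = 0.00275). The largest difference of this kind was in Cbr3, a carbonyl reductase, with values of 10.67, 10.86, 10.90 and 10.76 in HA and 11.999, 12.07, 11.84 and 11.93 in HASA. It rose by 1.16 with heme-arginate and by 2.07 without it (interaction -0.91, SE 0.0856, limma adjusted p = 1.44e-05). Heme-arginate alone had raised Cbr3 by 0.66 over Vehicle.

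Promoters of the NRF2 list are shown because the group rose together and NRF2 binds a short sequence, the antioxidant response element. Its core, TGACNNNGC, was looked for on both strands in RefSeq windows from 250 bases before to 50 bases after each gene's start (build GRCm38.p6). It was present in 12.4% of all 32851 windows and, per gene, in 14.0% of 27025 genes. Of the 25 genes, 21 had a window and 9 of these (42.9%) held the core. Among all measured genes with a window, the core stood in 17.1%, in 18.4% of those that rose and in 17.1% of those that fell. The 4 members with a match and the largest rises are printed 5′ to 3′ on the gene's own strand, with the core in capitals. They are Srxn1 (sulfiredoxin, chr2:152105274-152105573, plus strand), Gclm (chr3:122245307-122245606, plus strand), Me1 (malic enzyme, chr9:86695865-86696164, minus strand) and Txnrd1 (thioredoxin reductase, chr10:82858956-82859255, plus strand). Where a gene has several windows, one with a match is shown.
Srxn1: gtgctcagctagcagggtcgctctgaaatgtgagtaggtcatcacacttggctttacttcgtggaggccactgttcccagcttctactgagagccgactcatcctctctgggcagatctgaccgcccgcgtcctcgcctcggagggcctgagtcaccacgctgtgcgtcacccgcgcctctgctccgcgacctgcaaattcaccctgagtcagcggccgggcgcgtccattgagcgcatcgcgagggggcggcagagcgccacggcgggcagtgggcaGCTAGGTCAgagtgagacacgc
Gclm: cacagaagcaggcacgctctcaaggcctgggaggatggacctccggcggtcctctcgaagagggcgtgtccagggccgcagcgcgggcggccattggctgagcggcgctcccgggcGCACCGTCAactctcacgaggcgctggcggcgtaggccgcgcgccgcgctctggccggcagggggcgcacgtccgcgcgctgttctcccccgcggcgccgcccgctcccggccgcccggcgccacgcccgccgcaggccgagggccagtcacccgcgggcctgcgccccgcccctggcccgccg
Me1: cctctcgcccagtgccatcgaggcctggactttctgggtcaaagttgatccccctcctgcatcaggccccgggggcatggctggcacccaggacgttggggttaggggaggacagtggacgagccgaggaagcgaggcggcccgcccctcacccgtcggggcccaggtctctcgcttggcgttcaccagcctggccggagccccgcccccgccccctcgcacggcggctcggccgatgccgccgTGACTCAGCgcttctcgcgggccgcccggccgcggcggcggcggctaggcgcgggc
Txnrd1: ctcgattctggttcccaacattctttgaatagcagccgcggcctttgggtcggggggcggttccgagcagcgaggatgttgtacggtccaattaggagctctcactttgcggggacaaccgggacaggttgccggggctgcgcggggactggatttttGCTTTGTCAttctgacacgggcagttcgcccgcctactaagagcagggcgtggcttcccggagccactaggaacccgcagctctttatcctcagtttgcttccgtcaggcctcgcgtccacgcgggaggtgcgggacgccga
Capitals that read GCNNNGTCA are the core on the opposite strand, as in Srxn1, Gclm and Txnrd1. Counted from the start of the gene as 0, the match began at position 28 in Srxn1, -134 in Gclm, -6 in Me1 and -92 in Txnrd1. These letters are a description of the window and not a measured binding site. For comparison, the window of Nqo1 (chr8:107403156-107403455, minus strand) held no match. Sequence more than 250 bases before the start was not searched, so a core further away would be missed.
Nqo1: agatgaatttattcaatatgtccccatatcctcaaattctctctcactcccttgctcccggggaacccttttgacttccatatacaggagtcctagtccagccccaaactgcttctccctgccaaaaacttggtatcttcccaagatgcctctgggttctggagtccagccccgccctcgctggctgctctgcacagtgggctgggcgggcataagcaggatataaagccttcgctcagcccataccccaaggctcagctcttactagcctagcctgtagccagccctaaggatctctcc
Srxn1, which restores oxidized peroxiredoxins, rose by 1.28 with heme-arginate and 1.42 without it. Txnrd1 rose by 0.85 and 0.95, and Me1, which makes NADPH, by 0.88 and 0.57. Srxn1, Gclm and Txnrd1 were picked after their values were seen.

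Genes that use glutathione were divided. Of 18 glutathione transferases, 10 rose and 6 fell, with a median of 0.18, where 20.4% of all genes rose and 22.4% fell. Gsta3 rose by 2.11, Gstm1 by 0.83, Mgst1 by 0.72 and Gstp1 by 0.73. Gsta3, Gstm1 and Gstp1 have close paralogs with which reads can be shared, so their values are uncertain. Among 15 genes that remove peroxide and superoxide, 7 fell and 2 rose. Gpx3, the secreted glutathione peroxidase, a selenoprotein, had values of 15.23, 15.08, 15.01 and 15.23 in HA and 12.45, 12.47, 12.03 and 12.10 in HASA. The groups were separated by more than 2 log2 units, with a change of -2.88 (SE 0.0983, limma adjusted p = 5.14e-13), or 7.35-fold lower, against -2.36 without heme-arginate. Gpx4, which protects membranes from lipid peroxides, fell by 0.35, and Prdx1, a peroxiredoxin, rose by 0.54. Slc7a11, the cystine importer that feeds glutathione synthesis, had values of 7.29, 7.35, 7.61 and 7.38 in HA and 8.91, 9.05, 9.23 and 9.18 in HASA, and the groups did not overlap. It rose by 1.68 (SE 0.121, limma adjusted p = 4.63e-09), against 1.05 without heme-arginate.

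Genes of the integrated stress response, which includes the heme-regulated kinase, had 5 rises and 12 falls among 32 genes with heme-arginate (median -0.07) and 16 rises and 3 falls without it (median 0.10). Of the 32 interactions 9 were called, 8 of them lower, against 7.68% of all genes. Ddit3 (CHOP), a stress-induced factor, changed by -0.37 with heme-arginate and by 0.16 without it, opposite and both called, with an interaction of -0.53 (SE 0.0703, limma adjusted p = 0.000356). Stc2, a secreted glycoprotein, fell by 0.73 and 0.63, and Shmt2, mitochondrial serine hydroxymethyltransferase, by 0.58 and 0.51. Both are among the 3 falls without heme-arginate. The rises included Slc7a11, described above, which had the largest change of the list (1.68 and 1.05). Over all genes 20.4% rose and 22.4% fell with heme-arginate, and 20% rose and 21.4% fell without it. Of 20 p53 targets, 11 rose and 3 fell. The rises included Mdm2 (0.38) and the cell cycle inhibitor Cdkn1a (0.41), which without heme-arginate rose by 0.52 and 0.53. Aen, a nuclease induced by p53, rose by 0.33 and 0.44, and Phlda3, an inhibitor of AKT, by 0.30 and 0.37. Of 23 cell cycle genes 11 fell and none rose, among them Mki67, a proliferation marker (-0.43). Of 19 circadian genes 9 rose and 2 fell, against 15 and 0 without heme-arginate. Rora, a nuclear receptor of the clock, rose by 0.59 and 0.50, Bhlhe40, a clock repressor, by 0.51 and 0.43, and Tef, a clock-driven factor, by 0.35 and 0.49. Nr1d1, a heme-binding clock repressor, rose by 0.32 with heme-arginate and 0.69 without it (interaction -0.37, SE 0.0839, limma adjusted p = 0.0123).

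General adipocyte genes rose on balance while brown fat genes fell, with 14 of 23 higher and 6 lower (median 0.27). Over all genes 20.4% were higher and 22.4% lower. Cidec, a lipid droplet protein that enlarges droplets, had values of 11.59, 11.38, 11.32 and 11.38 in HA and 12.54, 12.44, 12.47 and 12.43 in HASA. No HASA library overlapped with HA, and Cidec rose by 1.05 (SE 0.0507, limma adjusted p = 3.03e-11) against 0.57 without heme-arginate (interaction 0.48, SE 0.0717, limma adjusted p = 0.00066). Retn, the adipokine resistin, rose by 1.17 against 0.47 (interaction 0.70, SE 0.0898, limma adjusted p = 0.000345), and Lipe, hormone-sensitive lipase, by 0.67 against 0.81. Plin5, the droplet protein of oxidative tissues, fell by 1.31 and 1.23. Lep, leptin, fell by 0.38 with heme-arginate and by 1.20 without it (interaction 0.82, SE 0.102, limma adjusted p = 0.000299). Heme-arginate alone had lowered Lep by 1.22 against Vehicle.

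Pck1, the enzyme of glyceroneogenesis in fat, had values of 8.82, 8.996, 9.04 and 8.96 in HA and 6.40, 6.50, 6.72 and 6.62 in HASA. All HASA libraries lay below all HA libraries, with a change of -2.39 (SE 0.0758, limma adjusted p = 2.42e-13), or 5.25-fold lower. The fall was smaller than without heme-arginate, -3.11 (interaction 0.72, SE 0.107, limma adjusted p = 0.000689), and the means of HASA and SA were 6.56 ± 0.139 and 6.58 ± 0.115. Gpd2, the mitochondrial glycerol-3-phosphate dehydrogenase of the glycerol phosphate shuttle, fell by 1.29 and Gpd1, its cytosolic partner, by 0.83. In all, 6 of the 8 genes of glycerol-3-phosphate supply fell, and 1 rose: Pcx, pyruvate carboxylase, by 0.59 and 0.54. Over all genes 20.4% rose and 22.4% fell. Of 18 genes of fatty acid and triglyceride synthesis, 9 rose and 7 fell. The elongases Elovl6 and Elovl5 fell by 0.91 and 0.44, and Acacb, the carboxylase that makes malonyl-CoA at the mitochondrion, fell by 0.67. Of 19 sterol synthesis genes, 8 rose and 2 fell, with a median of 0.15 against -0.03 without heme-arginate. Dhcr7, the last step to cholesterol, rose by 0.43 against 0.06, not called, without heme-arginate (interaction 0.36, SE 0.0919, limma adjusted p = 0.0213), and Hmgcs1, an early step, fell by 0.59. Glycolysis had 9 rises and 5 falls among 19 genes, with Ldha at 0.40 and Ldhb, the lactate dehydrogenase subunit typical of heart, at -0.68.

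**Figure D4:**
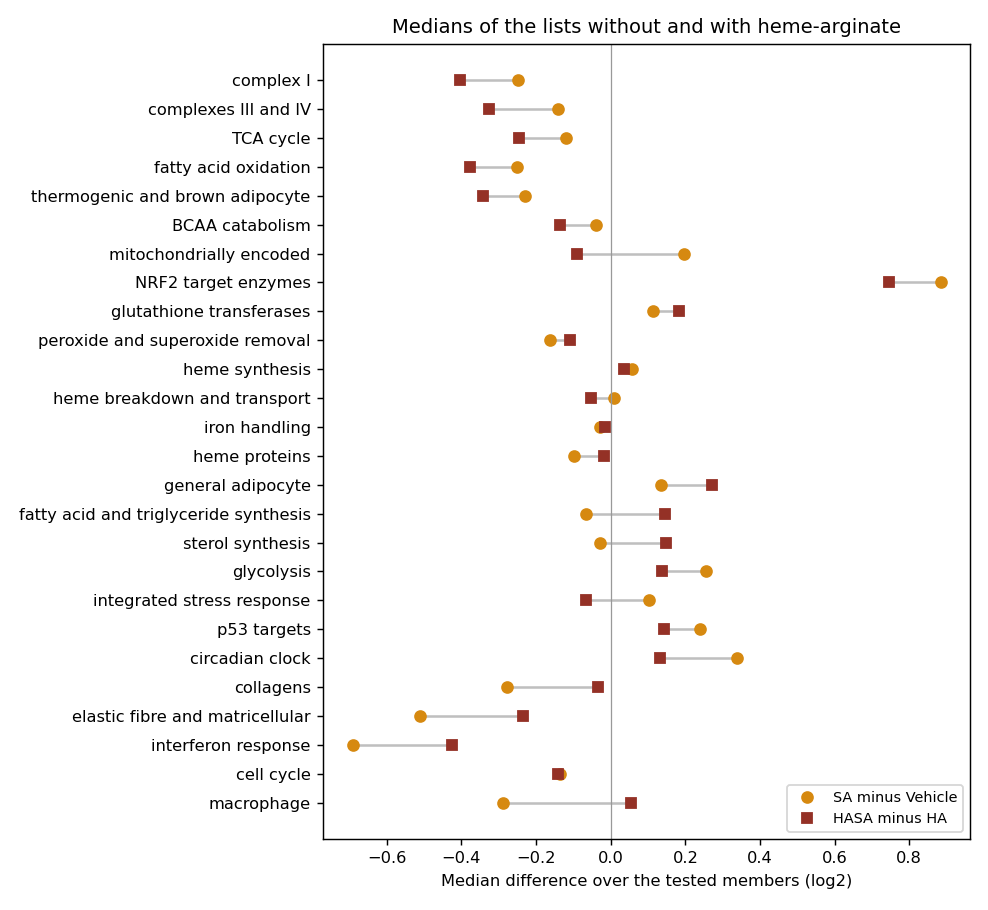
Median change over the tested members of 26 gene lists, as differences of log2 means, for SA against Vehicle (circles) and HASA against HA (squares). Complex I moves from -0.25 to -0.40 and NRF2 targets from 0.89 to 0.75, while the lists of collagens, elastic fibres and macrophages lie nearer to 0 with heme-arginate.

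The largest rises not yet described included Lcn2, a secreted protein that binds iron-carrying siderophores. Lcn2 had values of 9.75, 9.49, 9.41 and 9.76 in HA and 12.07, 12.15, 12.16 and 12.07 in HASA. It rose by 2.51 (SE 0.0766, limma adjusted p = 2.42e-13), or 5.69-fold, against 2.29 without heme-arginate. The interaction, 0.22, with a 95% interval from -0.01 to 0.45, did not pass (limma adjusted p = 0.228). Hsd11b1, which regenerates active glucocorticoid, rose by 1.51 and 1.47. Hephl1, a copper ferroxidase, rose by 1.49 and 0.93, Trhde, an ectopeptidase, by 1.43 and 1.07, Prune2 by 1.41 and 0.81, and Rdh12, a retinol dehydrogenase, by 1.33 and 0.59. Ces1f, a carboxylesterase, rose by 1.86, with close paralogs that make its value uncertain. B3galt2, a galactosyltransferase, had values of 8.95, 8.64, 8.63 and 8.57 in HA and 10.25, 10.29, 10.43 and 10.27 in HASA. The HASA libraries lay above all others of the experiment. It rose by 1.61 (SE 0.0847, limma adjusted p = 8.31e-11), against 0.35 without heme-arginate, the largest positive interaction among the genes named (1.26, SE 0.12, limma adjusted p = 1.44e-05).

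Among the largest falls, Itih4, an inter-alpha-trypsin inhibitor chain, had values of 11.25, 11.32, 11.22 and 11.37 in HA and 9.57, 9.55, 9.50 and 9.53 in HASA. It fell by 1.75, against 0.91 without heme-arginate (interaction -0.84, SE 0.0667, limma adjusted p = 2.32e-06). Ano1, a chloride channel, fell by 1.64 and 1.05 (interaction -0.59, SE 0.0989, limma adjusted p = 0.00153). Pltp, a phospholipid transfer protein, fell by 1.68 and 1.93, Depp1 by 2.39 and 2.07, Pdk4, a kinase that shuts off pyruvate dehydrogenase, by 1.59 and 1.26, and Impa2, an inositol monophosphatase, by 1.59 and 0.91. Tuba8, a tubulin, fell by 1.01 and 0.32 (interaction -0.69, SE 0.127, limma adjusted p = 0.00288). Some called genes had opposite signs. Hcn2, a cation channel, changed by -0.29 with heme-arginate and 0.40 without it, Rasd1, a small GTPase, by 0.52 and -0.40, and Pmepa1, an inhibitor of TGF-beta signalling, by 0.26 and -0.56. Each of these interactions was called (-0.69, 0.92 and 0.82). In all, 68 genes were called in both contrasts with opposite signs.

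Changes of collagen genes lay higher with heme-arginate than without it for all 17 genes of the list. The median interaction of the list was 0.28, against -0.0042 over all genes. Of the 17, 7 rose and 8 fell (median -0.03), against 4 rises and 11 falls without heme-arginate (median -0.28). Over all genes 20.4% rose and 22.4% fell with heme-arginate, and 20% rose and 21.4% fell without it. The interaction was called for 11 of the 17, all higher, against 3.89% of all genes. Col1a2, a chain of the main fibrillar collagen, fell by 0.68 and 0.97, Col5a3 rose by 1.28 and 1.17, and Col6a2 rose by 0.50 against a change of 0.13 that did not pass (interaction 0.37, SE 0.0886, limma adjusted p = 0.0159). Of 23 elastic fibre and matricellular genes, 15 fell and 3 rose, against 19 and 1 without heme-arginate. Eln, elastin, fell by 1.08 and 1.01, Fbln5, which helps assemble elastic fibres, by 1.01 and 1.28, Mfap4 changed by -0.90 and -1.21, and Lum, the collagen-binding proteoglycan lumican, fell by 0.83 and 0.81. Preadipocyte and fibroblast markers had 6 falls and 1 rise among 9, with Dlk1, an inhibitor of adipogenesis, at -0.71 and Thy1 at -0.59. Their summed levels were lower beside the matrix genes, and the part of cell makeup in these results was not tested. Smooth muscle and pericyte genes had 6 rises and 4 falls among 15. Cald1, caldesmon, rose by 0.38, Cspg4, a pericyte proteoglycan, fell by 0.40, and Myl9, a myosin light chain, fell by 0.58 and 1.08 (interaction 0.50, SE 0.1, limma adjusted p = 0.00523).

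Most markers of macrophages did not pass with heme-arginate, with 2 of 16 higher, 2 lower and 12 not called, where 20.4% of all genes were higher and 22.4% lower. Without heme-arginate 2 were higher and 11 lower, against 20% and 21.4% of all genes. Of the 16 interactions 5 were called, all higher, and 11 were not, against 3.89% of all genes with a higher interaction. Marco, a scavenger receptor, rose by 0.46, and Lyz2, lysozyme, by 0.19 (limma adjusted p = 0.0293), which did not pass without HA library 1, 2 or 3 or HASA library 4 (0.12 to 0.18). Cd68, a lysosomal marker, fell by 0.26. Mrc1, the mannose receptor, changed by -0.21 with heme-arginate and -0.97 without it (interaction 0.75, SE 0.095, limma adjusted p = 0.000299). Without HASA library 1 the first change was -0.17 and did not pass (limma adjusted p = 0.0618). The complement genes C1qa, C1qb and C1qc, picked after their values were seen, did not pass with heme-arginate (0.21, 0.13 and 0.15) and fell by 0.32, 0.42 and 0.42 without it. Interferon response genes fell in both settings, 11 of 14 with a median of -0.42 and 13 of 14 with a median of -0.69. Irf7, a regulator of interferon genes, fell by 0.72 and Psmb8, an immunoproteasome subunit, by 0.63.

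Brown fat of female mice that lack Alas1 in brown adipocytes (BAKO) and of wild-type mice (WT), 4 animals each, was measured in a separate table, so its values can only be set beside these. Alas1, the deleted gene, was 10.35 ± 0.223 in BAKO and 12.85 ± 0.111 in WT, a change of -2.5 (limma adjusted p = 1.34e-05). The counts that follow include Alas1, among the 8 called lower and among the 3 higher in HASA but lower in BAKO. Of 13497 genes, 15 were called (0.111%), 7 higher (0.0519%) and 8 lower (0.0593%), and 1 gene was called without BAKO 1, BAKO 3, WT 1, WT 3 or WT 4, and 7 without BAKO 2. Of the 2469 genes higher in HASA and measured in both tables, 3 were higher and 3 lower in BAKO, and of the 2744 lower in HASA, 4 were lower and 1 higher. Of all genes shared by the tables, 0.0494% were higher and 0.0659% lower in BAKO. Of the genes described here, Cbr3 and Gsta3, which rose with SA, were also higher in BAKO. Cbr3 was 9.24 ± 0.33 in BAKO and 7.94 ± 0.0593 in WT, a change of 1.299 (limma adjusted p = 0.0167), and Gsta3 was 8.47 ± 0.38 and 6.94 ± 0.156, a change of 1.52 (limma adjusted p = 0.0167). Without BAKO 1, BAKO 3, WT 1, WT 3 or WT 4 neither passed (limma adjusted p = 0.0623 to 0.0937), and without BAKO 2 Gsta3 did not (0.0519). Mb (0.42), Ucp1 (-0.28), Cidea (0.15), Gpx3 (-0.00374), Pck1 (-0.26), Nqo1 (0.50) and Lcn2 (0.15) did not pass in BAKO against WT.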

How the data were processed

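The 16 libraries of this experiment were stranded mRNA libraries made by BGI from RNA isolated with TRIzol, per the labels. Per the submitters' processing notes, the tools were kallisto and DESeq2 and the build was GRCm39; their versions and roles are not given in the sources used here. The table's name speaks of raw counts, but the authors' deposited numbers are on a log scale, taken as log2. The base rests on the sums of 2 raised to the values, 20.8 to 22.0 M per library. Genes with a mean under 1 had a median SD of 0.00841 and genes of at least 9 one of 0.114, so fold changes of low genes are understated. Read depth is unknown, so no counting error or detection limit is given.

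Symbols came from the GENCODE M21 names, which matched 99.66% of identifiers. All 16 libraries were fitted together, with a mean for each group, in limma 3.58.1 in R 4.3.3 (moderated test, variance trended on the mean, Benjamini-Hochberg over all genes measured, intervals of 95%) and tested on simulated data. BAKO and WT were fitted in their own table. The 34 gene lists, the members and the naming rule were chosen with earlier results of these data known. The rule takes the heme synthesis genes and Ucp1, the 12 largest rises and falls of at least 5 CPM whose groups do not overlap, up to 4 genes per list with the smallest adjusted p, and 6 genes per direction of interaction. Not every gene it takes is printed. Promoter windows are RefSeq's on GRCm38.p6. Alternatives were no or a stricter filter on low values, other scalings, other fits and each library left out.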

Additional observations from a re-analysis of the deposited data

Results flagged for a closer look

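The change with SA differed with and without heme-arginate, by the test of the interaction, in 59 of the genes described, and the values in brackets are the interactions on the log2 scale. Genes of heme and iron were among them: Alas1 (-0.91), Blvrb (-0.23), Hmox2 (-0.23) and Ftl1 (-0.23) were lower, while Tfrc (0.77), Steap4 (0.46) and Hephl1 (0.56) were higher. Hmox2 and the 3 complement genes below were picked after their values were seen. In mitochondria the falls were deeper with heme-arginate for Ndufb10 (-0.33), Ndufs7 (-0.25), Cox5a (-0.22), Cox5b (-0.27), Sdhb (-0.22), Suclg1 (-0.19), Idh3a (-0.22), Bckdhb (-0.19), Cpt1b (-0.44) and Gpd2 (-0.40), and mt-Nd3 (-0.47) was lower as well. Among genes of oxidant defence and stress, Cbr3 (-0.91), Gclc (-0.27), Cat (-0.19), Gpx3 (-0.52), Gstp1 (-0.20) and Ddit3 (-0.53) were lower and Nqo1 (0.30), Me1 (0.31) and Slc7a11 (0.63) were higher. Among fat cell genes, Cidea (-0.88), Lipe (-0.14) and Ldhb (-0.34) were lower, and Adrb3 (0.38), Cidec (0.48), Acsl1 (0.59), Retn (0.70), Pck1 (0.72), Lep (0.82) and Dhcr7 (0.36) were higher. In matrix, contractile and macrophage genes, Col1a2 (0.28), Col6a2 (0.37), Fbln5 (0.27), Mfap4 (0.31), Myl9 (0.50), Mrc1 (0.75), C1qa (0.53), C1qb (0.54) and C1qc (0.56) were higher and Acta1 (-0.51) was lower. The clock repressor Nr1d1 (-0.37) and the metallothionein Mt2 (-0.39) were lower. Outside the lists, Itih4 (-0.84), Ano1 (-0.59), Tuba8 (-0.69) and Hcn2 (-0.69) were lower and B3galt2 (1.26), Rasd1 (0.92), Pmepa1 (0.82), Rdh12 (0.74), Prune2 (0.60) and Trhde (0.36) were higher. The calls of 12 of these interactions did not hold under every alternative run: Slc7a11, Gpx3, Nqo1, Me1, Mfap4, Fbln5, Col1a2, Mt2, Ftl1, Idh3a, Bckdhb and Lipe.

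In 10 cases 1 library stood apart from the other 3 of its group on the deposited log2 scale. These were Hpx in HASA library 2 (6.31, others 6.21 to 6.22), Pmepa1 in HA library 1 (8.12, others 8.41 to 8.42), Mrc1 in HA library 2 (9.68, others 9.85 to 9.87), Depp1 in HA library 4 (9.71, others 9.79 to 9.81), Acacb in HASA library 4 (11.95, others 12.14), Slc48a1 in HA library 1 (12.46, others 12.61 to 12.63), Gpx4 in HASA library 4 (13.61, others 13.70 to 13.71), Acsl1 in HASA library 3 (14.36, others 14.19 to 14.21), Ldha in HA library 1 (15.99, others 16.08) and Ldha in HASA library 1 (16.52, others 16.43 to 16.44). They were found among 260 gene and group combinations, and chance gives about 1 in 20. No HASA or HA library overlapped with the other group in Ldha, Acsl1, Depp1, Gpx4, Acacb, Slc48a1 or Hpx.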

How the results depend on the processing

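Under the other filters, scalings and fits run, the count of genes called between HASA and HA was 5059 to 5611 against 5472, and that of the interaction 802 to 996 against 981. Leaving out each library gave 4875 to 5213 and 704 to 1061. The numbers in the library names gave no clear pairing. Correlations of deviations between HA and HASA libraries of the same number were 0.16, -0.04, 0.13 and -0.07. Between SA and Vehicle they were -0.01, 0.14, -0.06 and 0.17. HA library 1 and SA libraries 2 and 4 correlated best with their own number, and the other HA and SA libraries did not. With the number as a replicate block, 5452 genes were called between HASA and HA, 925 in the interaction and 664 in the interaction among genes called between HASA and HA. BAKO and WT animals are separate, and no paired fit was made for them. Their count of 15 ranged from 1 to 16 as each library was left out. Of the named genes run under the alternatives and called between HASA and HA, Acta1, Lyz2 and Mrc1 lost the call without single libraries. Of 59 called interactions of named genes, 47 kept the call under every alternative run. Only quantile normalization ended the call for Me1 (0.08, limma adjusted p = 0.512), Idh3a (-0.14, 0.1004) and Mt2 (-0.32, 0.0628), and Ftl1 lost it after quantile normalization (-0.14, 0.214) and without HASA library 4 (-0.21, 0.0517). Others lost it under several alternatives, mostly single libraries left out: Lipe under 16 (adjusted p up to 0.1195), Fbln5 under 12 (0.0809), Mfap4 under 9 (0.0768), Slc7a11 under 8 (0.0684), Bckdhb under 8 (0.0672), Gpx3 under 8 (0.0638), Nqo1 under 6 (0.0615) and Col1a2 under 4 (0.0609). Fech, not called, ranged from -0.000228 to 0.0504 as libraries were left out, and the interaction of Ucp1, not called, from -0.0761 to 0.143, with -0.000221 after quantile normalization. Limits: the deposited scale compresses low genes, depth is unknown, the scaling between libraries is the authors', and fewer brown adipocytes cannot be told apart from less RNA per cell. Median centring raised the share of higher calls from 47.7 to 54.2%.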

Other observations

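Glucocorticoid action genes had 3 rises and 4 falls among 13 between HASA and HA, where 20.4% of all genes rose and 22.4% fell. The median change was -0.10, and 6 were not called. The rises were Lcn2 (2.51) and Hsd11b1 (1.51), both described above, and Dusp1. The falls were Tsc22d3 (-0.62), Errfi1 (-0.31), Mt2 (-0.30) and Klf9 (-0.24). Tsc22d3, Errfi1 and Klf9 were not run under the alternatives. Dusp1, a phosphatase induced by glucocorticoid, rose by 0.54 with heme-arginate and 0.51 without it, and Mt2, a metallothionein, fell by 0.30 with heme-arginate against a change of 0.09 without it that did not pass (limma adjusted p = 0.292). Mt2 had been raised by heme-arginate alone, from 13.57 in Vehicle to 14.45 in HA.

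Markers of other cell types were few. Of 5 skeletal muscle genes measured, 1 rose: Acta1, skeletal actin, by 0.25 (limma adjusted p = 0.0292), which did not pass without HA library 1 or 2 or HASA library 2 or 3 (0.19 to 0.25). Of 4 Schwann cell genes, Mbp, myelin basic protein, fell by 0.37 and without heme-arginate by 0.43. The 2 endothelial genes measured did not pass. Over all genes 20.4% rose and 22.4% fell, so 1 rise among 5 and 1 fall among 4 are near the common shares. The skeletal muscle genes summed to between 12.95 and 15.1 CPM in HA and between 13.8 and 15.7 CPM in HASA.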
